A study of Mus musculus with 1279 samples.

Results

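Small leucine-rich proteoglycans are secreted matrix proteins with a core of leucine-rich repeats that bind collagen fibrils and set their diameter and spacing. Decorin (Dcn) and biglycan (Bgn) carry chondroitin or dermatan sulfate chains, and their relative asporin (Aspn) carries an aspartate-rich stretch in place of such chains. Lumican (Lum), fibromodulin (Fmod), keratocan (Kera), osteomodulin (Omd) and Prelp form a second class, many members of which carry keratan sulfate, while osteoglycin (Ogn) and podocan (Podn) belong to further classes. In the heart they are known as products of interstitial fibroblasts and of valve and vessel wall cells. The family was chosen by name, as the 10 rows of these genes among the 46517 genes of a count table of mouse heart cells, and all 10 rows were found.

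The cells were 1279 single heart cells of male mice aged 10 to 20 weeks, read by Smart-seq2, a plate-based method that gives 1 full-length library per cell. C57BL6 mice carry no reporter, and their 581 cells were sorted with antibodies to PDGFRα or PDGFRβ. In these and in the reporter sorts below, CD31-positive cells were set aside. The other mice carried fluorescent reporter transgenes on a C57BL6 background. The 364 PdgfrbGFP cells were sorted by GFP under the control of Pdgfrb, a gene of mural cells and some fibroblasts. The Cspg4dsRED cells (12.7% of all) were sorted by red fluorescence under the control of Cspg4, a mural cell gene. The Acta2GFP cells (13.4% of all) were sorted by GFP under the control of Acta2, a smooth muscle actin gene, after a dissociation with elastase added. Each sort sees only the cells in which its antibody target or promoter is active. The study put the cells into 8 clusters and held clusters 1 to 5 to be fibroblasts, with cluster 1 likely valve interstitial cells. Clusters 6, 7 and 8 are taken here as smooth muscle of large vessels, vascular smooth muscle and pericytes, which is an assumption. Clusters 1 and 6 were small, with 70 and 39 cells, and clusters 2, 3, 4, 5, 7 and 8 held 17.1%, 8.76%, 18.2%, 22.8%, 9.23% and 15.3% of the cells.

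Cells are not replicates and the labels name no animal, so reads were summed per strain, and the 4 strains were the replicates. A sum entered with 3 cells or more. Strain and sort cannot be told apart, and each reporter strain lay on 1 plate. The C57BL6 cells lay on 2 plates, apart from 1 cell on another, and all C57BL6 mural cells on 1 of them. The spread between strains holds sort and plate as well. Levels are CPM, the counts of a gene scaled to the same fixed total of reads in every sum, and are not corrected for gene length unless stated. Where values are listed by strain without names, the order is C57BL6, PdgfrbGFP, Cspg4dsRED, Acta2GFP. A cell gave 274504 gene counts at the median (lowest 46268, highest 1302397). No cell name was used by more than 1 sample, and 0 cells held values identical to those of another cell. The summed fibroblast markers (Pdgfra, Col1a1, Col1a2, Fbln1, Fbln2) reached means of 6829 to 9196 CPM in clusters 1 to 5, 233.8 CPM in cluster 7 and 1175 CPM in cluster 8, and all 5 were detected in every mural sum. Cluster 6 carried smooth muscle markers (Acta2, Myh11, Tagln, Cnn1) at 9946 to 13384 CPM together with fibroblast markers at 2216 to 7910 CPM. No set of large vessel markers was examined. The 3 C57BL6 cells of cluster 6 and the 15 Acta2GFP cells of cluster 8 stood apart from the same clusters in other strains, and values without them are given beside the results where they differed most. Endothelial markers (7 genes) summed to 4.34 to 274.2 CPM in the mural sums, and immune markers (5 genes) to 0 to 184.5 CPM, with 4 of the 5 at 0 in the highest of these. Cardiomyocyte markers (9 genes: Myh6, Tnnt2, Tnni3, Actc1, Pln, Mb, Ttn, Ryr2, Myl2) had means of 758, 1601 and 338 CPM in clusters 6, 7 and 8, reaching 2034 CPM, against 37.2 to 186.5 CPM in clusters 1 to 5. The study names Actc1 among genes enriched in smooth muscle that likely comes from the large vessels. The sum was not split by gene, so it is not a measure of cardiomyocyte reads alone. Valve and tendon markers (Wif1, Comp, Thbs1, Scx, Tnmd) had a mean of 4881 CPM in cluster 1, at most 457 CPM in any of clusters 2 to 5, and 953 CPM in cluster 6. The part of these markers in the members' levels was not tested.

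All coordinates are those of GRCm38. Several members lie side by side. Dcn (chr10:97479609-97518143), Lum (chr10:97565128-97572703) and Kera (chr10:97606879-97613692) are on the forward strand of chromosome 10, with 46984 bases between Dcn and Lum and 34175 between Lum and Kera. Aspn (chr13:49544443-49567565), Omd (chr13:49582462-49592822) and Ogn (chr13:49608046-49624501) follow each other on the forward strand of chromosome 13, with 14896 and 15223 bases between them. Prelp (chr1:133910304-133921414, reverse strand) and Fmod (chr1:134037254-134048277, forward strand) are 115839 bases apart on chromosome 1, and Bgn (chrX:73483602-73495933, forward strand) and Podn (chr4:108014791-108096445, reverse strand) have no other member beside them. No protein-coding gene lies wholly within the stretches between these neighbours. The gene Cenpp, on the opposite strand (chr13:49464023-49652785), spans Aspn, Omd and Ogn and shares 7 exon bases with Aspn and none with the other two, and it had 981 reads over all cells. Scp2, on the same strand as Podn (chr4:108043839-108144998), overlaps it without sharing exon bases.

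The promoters of 4 members are shown because the following results turn on them most. Fmod and Prelp were the members higher in cluster 1, Ogn was lower there, and Aspn had the highest mean share of reads per merged exon length in pericytes, an order that turned with the length used. Each is the 250 bases before the transcription start that RefSeq gives on GRCm38.p6, written 5′ to 3′ on the strand of the gene. Capitals mark any match, on either strand, to a TATA box (TATAAA), an AP-1 site (TGANTCA), an E-box (CAGCTG) or a GC box (GGGCGG). The stretches are chr1:134037004-134037253 for Fmod, chr1:133921402-133921651 for Prelp, chr13:49544193-49544442 for Aspn and chr13:49607765-49608014 for Ogn.

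Fmod: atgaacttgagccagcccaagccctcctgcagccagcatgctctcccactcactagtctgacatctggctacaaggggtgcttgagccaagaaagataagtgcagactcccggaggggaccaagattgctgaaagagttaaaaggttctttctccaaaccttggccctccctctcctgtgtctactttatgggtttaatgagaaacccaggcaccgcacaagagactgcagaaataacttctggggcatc
Prelp: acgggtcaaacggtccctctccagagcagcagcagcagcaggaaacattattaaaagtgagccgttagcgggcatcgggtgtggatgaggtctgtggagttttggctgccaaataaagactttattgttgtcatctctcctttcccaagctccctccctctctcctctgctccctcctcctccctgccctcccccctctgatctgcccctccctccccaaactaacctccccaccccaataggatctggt
Aspn: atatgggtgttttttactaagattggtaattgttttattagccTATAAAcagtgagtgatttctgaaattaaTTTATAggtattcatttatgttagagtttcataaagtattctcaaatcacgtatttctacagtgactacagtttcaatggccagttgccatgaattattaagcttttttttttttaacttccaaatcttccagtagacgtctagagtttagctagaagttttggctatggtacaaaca
Ogn: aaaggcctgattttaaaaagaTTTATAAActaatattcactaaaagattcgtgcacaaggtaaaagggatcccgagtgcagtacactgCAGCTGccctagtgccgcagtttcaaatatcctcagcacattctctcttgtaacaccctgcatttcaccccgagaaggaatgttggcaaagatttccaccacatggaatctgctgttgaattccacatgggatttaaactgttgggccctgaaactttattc

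RefSeq promoters were matched for 8 of the 10 members, and none was read for Dcn and Lum. The TATA box letters stood in 12.4% of all 32851 promoters of this length and, among the members, in those of Aspn and Ogn, where 2 matches overlap on opposite strands in Ogn. The E-box letters stood in 13% of all promoters and in those of Ogn, Bgn and Podn. The GC box letters stood in 32.7% of all promoters and in those of Bgn and Podn, and the AP-1 letters in 6.75% of all and in none of the members'. Neither the Fmod nor the Prelp stretch held any of the 4 motifs. A match or its absence describes these letters only.

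Decorin, which binds collagen fibrils and limits their width, had high levels in every fibroblast cluster. Its level in cluster 1 was 6165, 5834, 5407 and 4838 CPM over the strains in that order. Over clusters its mean was highest in cluster 5 (7229 ± 487 CPM, SD, n = 2 strains), and the 2 strains there did not overlap with cluster 3, the next in order (5890 ± 976, n = 3). Cluster 5 rests on C57BL6 and PdgfrbGFP, at 6884 and 7573 CPM, while cluster 3 also holds Acta2GFP at 4767 CPM beside 6534 and 6370 CPM in the same 2 strains. Clusters 3, 1, 2, 4 and 6 then followed with ranges that overlapped from each to the next, the lowest fibroblast mean being 4716 ± 409 CPM (n = 4) in cluster 4. In the mural clusters 7 and 8 Dcn stood at 306 ± 218.97 (n = 3) and 621 ± 418 CPM (n = 4).

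Lumican, which binds fibrillar collagen and is best known from the cornea, varied less among fibroblasts. Its means ran from 2071 ± 53.95 CPM in cluster 4 (n = 4) to 2559 ± 48.5 CPM in cluster 5 (n = 2). In cluster 7 it was 58.9 CPM in PdgfrbGFP, 6.31 in Cspg4dsRED and 95.3 in Acta2GFP. In cluster 8 the strains stood at 61.3, 70.6, 6.30 and 111.7 CPM, so every sum of clusters 7 and 8 lay below every fibroblast sum. Biglycan, a decorin relative also made by vessel wall cells, was the most even member, at means of 3727 to 4570 CPM in clusters 1 to 5, 3456 ± 972 in cluster 6 (n = 3), 1255 ± 213.3 in cluster 7 (n = 3) and 1510 ± 307 in cluster 8 (n = 4).

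Fibromodulin, which guides collagen fibril assembly in tendon and other dense tissue, was concentrated in cluster 1. There the strains stood at 2418, 1563, 1623 and 1964 CPM, and all other sums lay between 1.80 and 153.8 CPM. Prelp, a heparin-binding member known from cartilage and basement membranes, was highest in cluster 1 as well, at 3886, 4424, 5143 and 4376 CPM in the same order of strains. It was lowest among fibroblasts in cluster 3 (579 ± 52.2 CPM, n = 3), and the strains of cluster 3 overlapped with no other fibroblast cluster. In cluster 6 Prelp stood at 936, 1823 and 1380 CPM in C57BL6, Cspg4dsRED and Acta2GFP, beside means of 1370 CPM in cluster 4 and 1166 CPM in cluster 5.

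Osteoglycin, also called mimecan and known from bone, had means of 802 to 1622 CPM in clusters 2 to 5. Cluster 1 was lower, at 357, 372, 176.5 and 407 CPM in C57BL6, PdgfrbGFP, Cspg4dsRED and Acta2GFP. Ogn then stood at 1145 ± 429 CPM in cluster 6, 396 ± 202.7 in cluster 7 and 94.8 ± 122.5 in cluster 8 (n = 3, 3 and 4). Osteomodulin, a keratan sulfate member known from bone, was a low gene throughout, with 17403 reads in 332 cells and means of 45.2 to 74.8 CPM in clusters 1 to 5. Podocan, known from kidney and vessel wall, had means of 320 to 398 CPM in clusters 2 to 5, while the strains of cluster 1 stood at 17.4, 1.24, 0 and 29.2 CPM. The limit that 3 counts set in the Cspg4dsRED sum was 3.70 CPM.

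Asporin, which binds collagen and TGF-beta, had its highest means in the mural clusters 7 and 8. In the pericyte cluster 8 it stood at 1627, 1584, 954 and 549 CPM over the strains, and in cluster 7 at 1554, 592 and 576 CPM in PdgfrbGFP, Cspg4dsRED and Acta2GFP. The range of the strains in cluster 8 overlapped with those of clusters 2, 4 and 7. Cluster 3 held 284.6, 11.1 and 469 CPM in C57BL6, PdgfrbGFP and Acta2GFP. Keratocan, a corneal member, was nearly unread, with 634 reads in 38 cells. A single PdgfrbGFP cell of cluster 1 gave 536 of them, 92.6% of the Kera reads of its sum, which stood at 71.7 CPM. All other sums were at 0.920 CPM or less, with no read in C57BL6 or Cspg4dsRED.

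**Figure D1:**
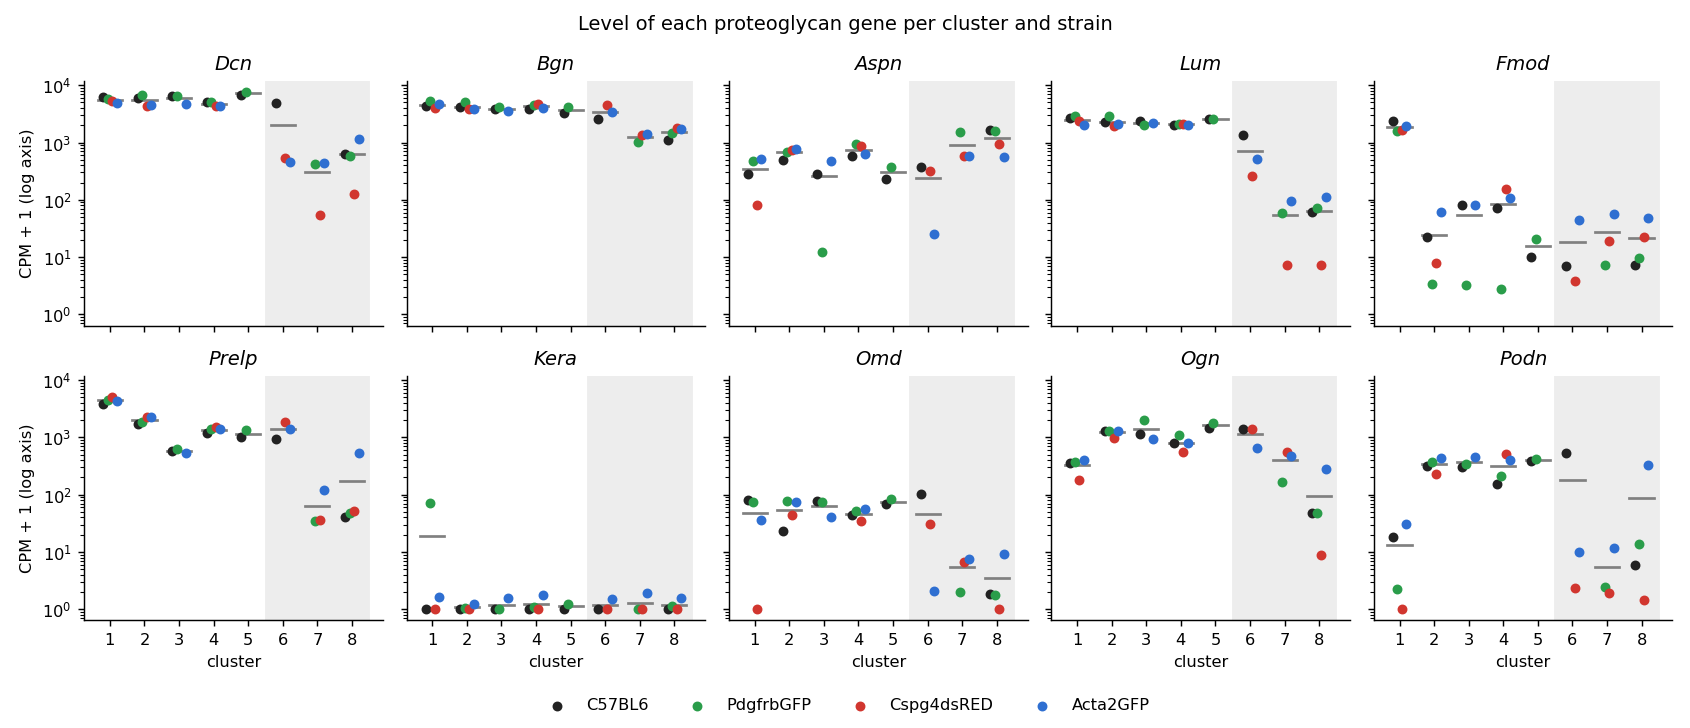
Level of each member per cluster, as CPM + 1 on a log axis, with 1 point per strain, grey lines for the mean over strains and a grey field behind the mural clusters 6 to 8. Fmod stands at 1563 to 2418 CPM in cluster 1 and at most 153.8 CPM elsewhere, while the means of Aspn are highest in clusters 7 and 8, where the Acta2GFP points (576 and 549 CPM) lie below the one of cluster 2 (774 CPM).

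The share of cells with a read was compared after each cell was thinned to 50000 reads, which left out 2 cells. Fmod was read in 77.1% of cluster 1 cells and 11.99% to 27.5% of the cells of clusters 2 to 5, against 15.4% to 34.2% in the mural clusters. Before thinning the corresponding shares were 88.6%, 33.6% to 47.9% and 25.6% to 50.5%, and the ranges of clusters 2 to 5 and of the mural clusters overlapped in both cases. At more than 100 CPM, Fmod was found in 68.6% of cluster 1 cells and in at most 9.32% of the cells of any other cluster. Podn was read in 21.4% of cluster 1 cells and 50.2% to 60.3% of those of clusters 2 to 5 after thinning (62.9% and 68.5% to 80.8% before). Median reads per cell were 333384 in cluster 1, 258505 to 349816 in clusters 2 to 5 and 167874 to 345475 in the mural clusters. The share of cells with an Aspn read was highest in cluster 8, at 96.9%, and lowest in cluster 5, at 54.8%, after thinning (98.98% and 81.2% before). Clusters 1 to 4 lay between, at 74.3%, 79.9%, 61.6% and 78.97% after thinning, and so did clusters 6 and 7, at 84.6% and 88.03%.

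**Figure D2:**
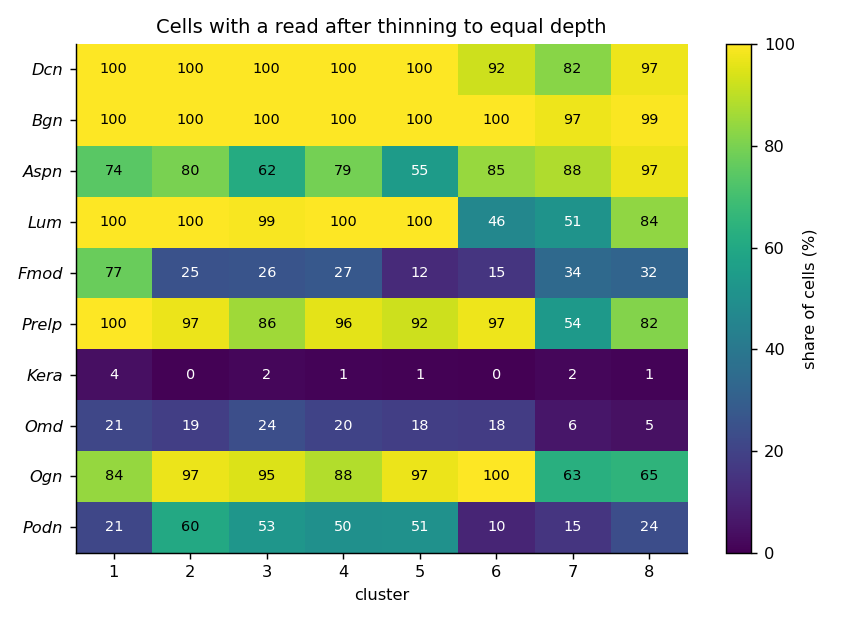
Share of cells (%) with at least 1 read of each member per cluster, after thinning each cell to 50000 reads. Dcn and Bgn are read in 82.1% or more of the cells of every cluster, Fmod has its highest share in cluster 1 (77.1%), and the shares of Podn in clusters 2 to 5 lie above that in cluster 1.

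Levels were compared between genes only per length, as CPM per kilobase of merged exon. In cluster 1, Prelp gave the largest mean share of the summed pool of the 10 members (25.7% ± 4.08, SD, n = 4), followed by Lum (21.02%), Dcn (19.7%), Bgn (15.5%) and Fmod (11.9%). Over strains the shares of Prelp (21.75% to 31.1%) and Lum (17.8% to 23.2%) overlapped. In the means, Dcn led in clusters 3 and 5 (28.9% and 30.2%) and Lum in clusters 2 and 4 (23.5% and 24.3%), in each case with the other of these as the second. The ranges of the 2 genes over strains overlapped in clusters 2, 3 and 4. In clusters 2 and 4 the highest Dcn share of a strain (26.3% and 26.7%) lay above the highest Lum share (25.9% and 24.98%). In cluster 6 the pool was made of Bgn (28.4%), Ogn (20.3%), Prelp (19.3%), Dcn (12.8%) and Lum (12.6%). The strains differed there, since Dcn was 28.9% of the pool in the 3 C57BL6 cells but 4.24% and 5.17% in Cspg4dsRED and Acta2GFP, and Bgn was 14.1% in C57BL6 but 34.4% and 36.8% in the other two. Aspn led in clusters 7 and 8 with 43.5% ± 19.7 (n = 3) and 51.2% ± 20.7 (n = 4), followed by Bgn with 25.1% and 25.99%. In cluster 7 Aspn stood at 66.1% in PdgfrbGFP but 34.8% and 29.7% in Cspg4dsRED and Acta2GFP, close to the Bgn shares of 31.2% and 27.5% there. In cluster 8 it stood at 66.7%, 62.4%, 54.5% and 21.04% over the strains, and in Acta2GFP Bgn was ahead of it with 25.3%. These orders depend on the length used for Bgn, whose merged exons (6099 bases) are longer than its longest transcript (2666 bases). Per kilobase of longest transcript, Bgn led in every cluster but 5, with 28.2% in cluster 1, 42.3% in cluster 7 and 42.7% in cluster 8, and Aspn came second in clusters 7 and 8 with 33.6% and 38.3%. Summed over the 10 members, the level was 19719 ± 1132 CPM in cluster 1 (n = 4), 14458 to 17091 CPM in the means of clusters 2 to 5, 9152 ± 2878 in cluster 6 (n = 3), 3016 ± 329 in cluster 7 (n = 3) and 3746 ± 741 in cluster 8 (n = 4).

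**Figure D3:**
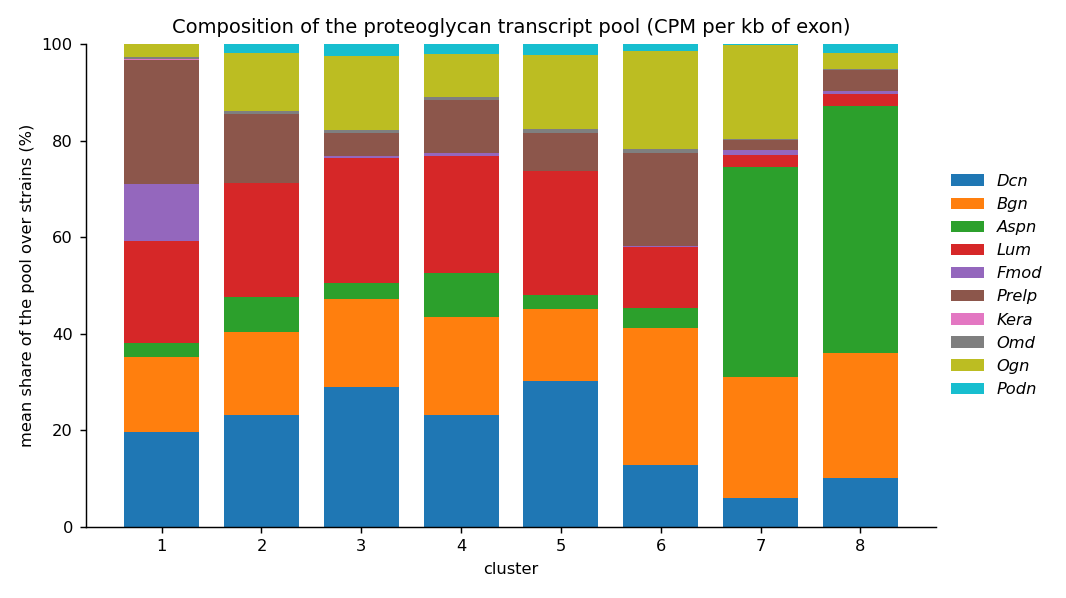
Mean share over strains of each member in the summed level of the 10 members, in CPM per kilobase of merged exon, per cluster. Prelp and Fmod together with Lum and Dcn fill most of cluster 1, and Aspn fills 43.5% and 51.2% of clusters 7 and 8.

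Fibroblasts (clusters 1 to 5) were compared with mural cells (clusters 6 to 8) over the 4 strains. Of the 10 members, 5 rose in fibroblasts, none fell, 4 did not pass and Kera was too low to be tested. Over all genes, 896 of 15117 passed (5.93%), with 3.47% higher and 2.45% lower in fibroblasts. The test was edgeR's quasi-likelihood F test with Benjamini-Hochberg adjustment over all genes tested and a threshold of 0.05. In this and the following comparisons a p-value sets the size of a difference against the spread between the strain sums. The clusters were made by the authors from the same reads, so it is no independent evidence of a difference.

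Lum stood at 2318, 2551, 2038 and 2069 CPM in the fibroblasts of C57BL6, PdgfrbGFP, Cspg4dsRED and Acta2GFP, and at 214.7, 69.5, 83.5 and 138.3 CPM in their mural cells. The groups did not overlap, and the log2 fold change was 4.16 (SE 0.40, adjusted p = 0.000419). Dcn stood at 6125, 6485, 4378 and 4629 CPM against 1134, 566, 212.1 and 676 CPM, with a log2 fold change of 3.06 (SE 0.47, adjusted p = 0.00476). Both kept their call in each of the alternatives run, with adjusted p up to 0.00568 for Lum and 0.0467 for Dcn.

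Bgn had 4156 ± 329 CPM on the fibroblast side and 1682 ± 504 CPM on the mural side (SD, n = 4), a log2 fold change of 1.30 (SE 0.26, adjusted p = 0.0162). Without C57BL6, PdgfrbGFP or Acta2GFP its adjusted p was 0.105, 0.0911 and 0.0991. Prelp was 1818 ± 414 against 286.6 ± 240.97 CPM, 2.68 on the log2 scale (SE 0.63, adjusted p = 0.0330). Its call was lost without C57BL6, PdgfrbGFP or Acta2GFP (0.131, 0.0522 and 0.129), and at 0.0518 without the C57BL6 cells of cluster 6 and the Acta2GFP cells of cluster 8, where the log2 fold change was 2.92. It stayed between 2.29 and 3.90 in all alternatives run. Fmod was 249.6 ± 165.7 against 20.1 ± 21.4 CPM, 3.62 on the log2 scale (SE 0.73, adjusted p = 0.0162). With clusters 1 and 6 left out together it was 1.25 (adjusted p = 0.497). Without C57BL6, PdgfrbGFP or Cspg4dsRED the adjusted p of Fmod was 0.0522, 0.0792 and 0.0735.

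Among the members that did not pass, Omd was 52.2 ± 16.4 against 8.06 ± 5.58 CPM (log2 fold change 2.74, adjusted p = 0.0686), and the groups did not overlap. Omd passed with DESeq2 (2.65, adjusted p = 0.00275) and without clusters 1 and 6 (4.08, adjusted p = 0.0147), and stood at 3.44 (adjusted p = 0.0540) without the C57BL6 cells of cluster 6 and the Acta2GFP cells of cluster 8. Ogn was 1153, 1345, 705 and 887 CPM against 203.4, 58.9, 713 and 420 CPM (1.59, adjusted p = 0.186), where the sides of Cspg4dsRED were nearly level. The mural sums were made of different clusters, since cluster 8 gave 89.2%, 92.97%, 21.2% and 29.4% of the mural cells of the strains. The 713 CPM of Ogn in Cspg4dsRED covers 1411, 554 and 7.95 CPM in clusters 6, 7 and 8. Podn was 280.6, 301, 356 and 338 CPM in fibroblasts against 66.9, 11.4, 0.989 and 112.6 CPM in mural cells (2.74, adjusted p = 0.166). Without the 3 C57BL6 cells of cluster 6 and the 15 Acta2GFP cells of cluster 8, Podn had a log2 fold change of 5.44 with an adjusted p of 0.00156, and DESeq2 called it with them (2.65, adjusted p = 0.0382). Aspn was 400, 589, 696 and 629 CPM against 1472, 1581, 575 and 517 CPM (-0.89, adjusted p = 0.326), lower in fibroblasts in C57BL6 and PdgfrbGFP and higher in the other two, in which most mural cells were of clusters 6 and 7.

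**Figure D4:**
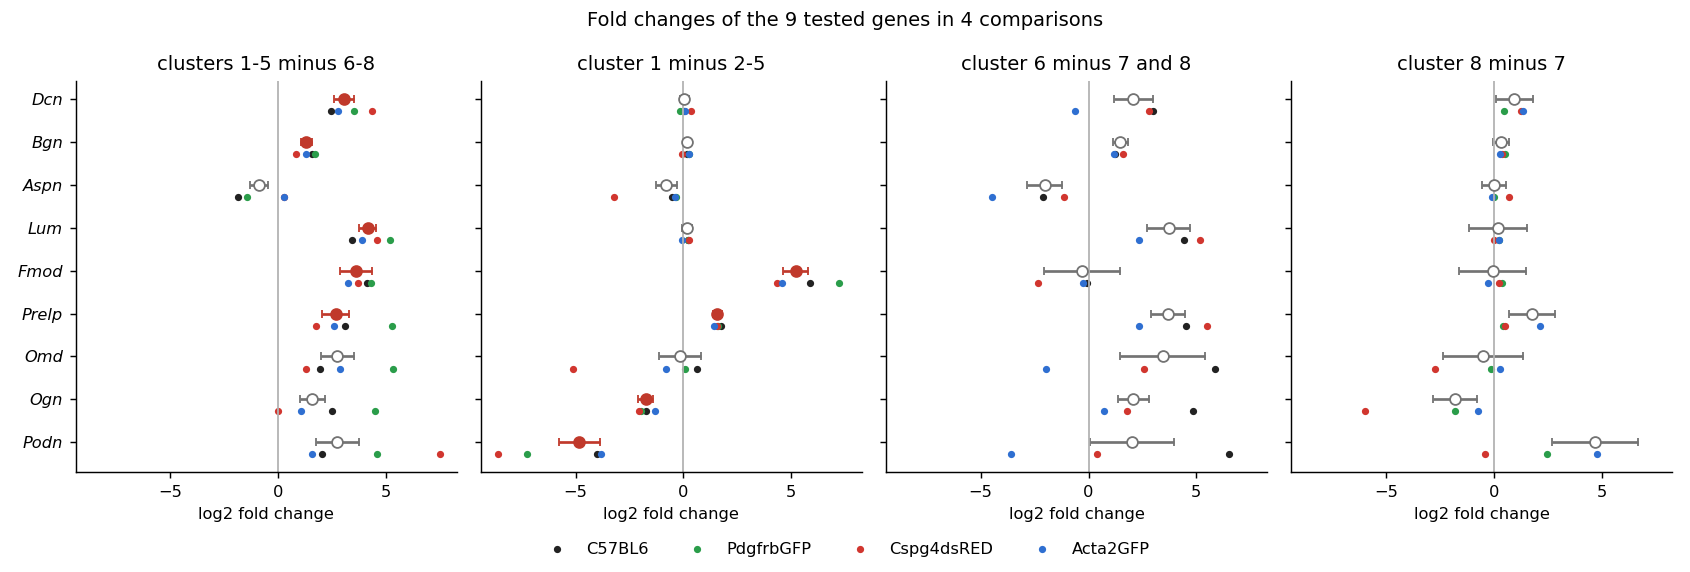
Fitted log2 fold changes of the 9 tested members in 4 comparisons, with bars for 1 SE. Filled red circles passed the adjusted p of 0.05 and open circles did not, and small coloured points give the ratio within each strain on the log2(CPM + 1) scale.

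Mural cells shared their plates with fibroblasts, which carried far more Dcn and Lum. Fibroblasts were 88.8% of the cells on the C57BL6 plate that held the mural cells, 64.8% of PdgfrbGFP, 15.95% of Cspg4dsRED and 70.2% of Acta2GFP. In clusters 7 and 8 Dcn was lowest in Cspg4dsRED, at 53.3 and 127.9 CPM. In cluster 6 it was lowest in Acta2GFP (453 CPM), beside 527 CPM in Cspg4dsRED and 4970 CPM in C57BL6. Lum reads were 37.8% to 46.5% of Dcn reads in fibroblasts of the 4 strains, but 11.8% to 21.4% in cluster 7 and 4.92% to 12.1% in cluster 8. In each strain the shares in clusters 7 and 8 lay below that of its fibroblasts. In cluster 6 the share was 27.4%, 49.1% and 112.7% in C57BL6, Cspg4dsRED and Acta2GFP. Each well carried its own index combination, and the layout of the indexes over rows and columns was not stated. Across the mural wells of a plate the reads of a member were set against those of the other wells of its row and column. Over the mural wells of the 4 strains, the fewest being 37 in C57BL6 and 51 in Acta2GFP, Spearman's rho was 0.260 to 0.662 for Dcn, 0.413 to 0.749 for Lum, 0.293 to 0.758 for Prelp and 0.0424 to 0.326 for Aspn, with -0.0827 to 0.51 for Ogn, 0.214 to 0.359 for Podn and -0.15 to 0.414 for Bgn, against 0.309 to 0.509 for all genes. The wells share plate and sort, and the part of this in the mural levels was not tested.

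**Figure D5:**
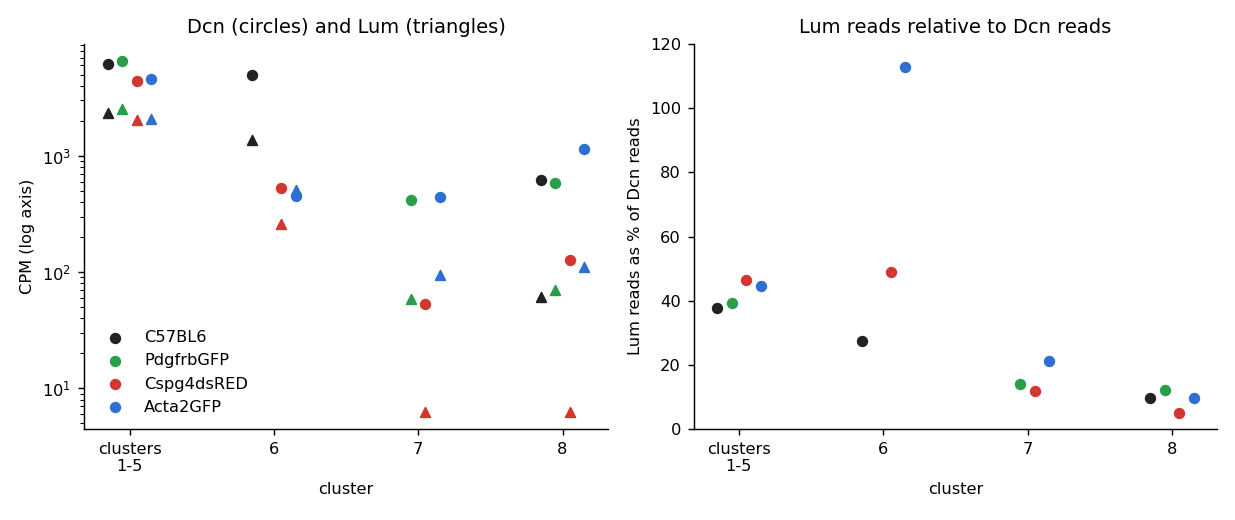
Left, Dcn (circles) and Lum (triangles) in CPM on a log axis for fibroblasts and for clusters 6, 7 and 8, with 1 colour per strain. Right, Lum reads as a percentage of Dcn reads, which is 37.8% to 46.5% in fibroblasts and 4.92% to 21.4% in clusters 7 and 8.

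Cluster 1, the likely valve interstitial cells, was compared with clusters 2 to 5. Of the 9 members tested, Fmod and Prelp rose, Ogn and Podn fell, and Dcn, Bgn, Lum, Omd and Aspn did not pass. Of 13201 genes 1.33% passed, 0.561% higher and 0.773% lower. Cspg4dsRED had only 3 cells in cluster 1.

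Fmod stood at 2418, 1563, 1623 and 1964 CPM in cluster 1 of C57BL6, PdgfrbGFP, Cspg4dsRED and Acta2GFP and at 40.4, 9.57, 78.2 and 81.9 CPM in clusters 2 to 5, with no overlap. Its log2 fold change was 5.21 (SE 0.59, adjusted p = 0.00197), and it passed in every alternative run. Prelp stood at 3886, 4424, 5143 and 4376 CPM against 1167, 1449, 1724 and 1643 CPM, 1.58 on the log2 scale (SE 0.20, adjusted p = 0.00298), a call lost without Acta2GFP (0.0749). The reads of Prelp overlap those of the antisense gene Gm15851 over 350 exon bases (9.68% of the Prelp exons), and the strand setting of the counting was not stated. Gm15851 reads were 9.89% to 17.7% of Prelp reads in the sums of clusters 1 to 5 and 8.73% to 16.2% in those of clusters 6 to 8, and reads of the 2 genes cannot be told apart there.

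Ogn was 357, 372, 176.5 and 407 CPM in cluster 1 and 1182, 1467, 749 and 1021 CPM in clusters 2 to 5. It fell by 1.74 on the log2 scale (SE 0.35, adjusted p = 0.0396), and without C57BL6, PdgfrbGFP or Acta2GFP the adjusted p was 0.256, 0.183 and 0.165. Podn fell from 290.4, 339, 385 and 425 CPM in clusters 2 to 5 to at most 29.2 CPM in cluster 1, a log2 fold change of -4.83 (SE 0.95, adjusted p = 0.0375). The call on Podn was lost when any 1 of the strains was left out (adjusted p 0.231, 0.146, 0.0795 and 0.158 in their order) and with the strain as a replicate block (0.0867), while the value stayed between -5.75 and -3.71 in the alternatives run. Within C57BL6 the plates differed, with Podn in cluster 1 at 3.16 CPM in 16 cells of one plate and 101.9 CPM in 3 cells of the other. Fmod in cluster 3 likewise stood at 111.9 and 2.26 CPM on these plates, and Omd in cluster 1 at 92.4 and 0 CPM.

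Decorin, biglycan and lumican were nearly level between cluster 1 and the other fibroblasts. The log2 fold changes were 0.04 (SE 0.22) for Dcn, 0.17 (SE 0.20) for Bgn and 0.17 (SE 0.22) for Lum, with adjusted p of 0.9996, 0.978 and 0.985, and the groups overlapped. Aspn was 282.4, 483, 80.2 and 507 CPM in cluster 1 and 404, 602, 747 and 664 CPM in clusters 2 to 5 (-0.80, adjusted p = 0.801), lower in each strain.

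Within cluster 1, cells with more Fmod also had more Prelp. Over the 19, 22 and 26 cells of C57BL6, PdgfrbGFP and Acta2GFP, the Spearman correlation of the 2 levels was 0.775 to 0.93 with a mean of 0.854. The mean over strains was -0.0218 in clusters 2 to 5, where 33.6% to 47.9% of the cells had a Fmod read, and 0.303 in clusters 7 and 8 (range 0.0369 to 0.461). The chromosome 13 neighbours Ogn and Omd had means of 0.400, 0.12 and 0.0152 in these 3 sets of cells, beside 0.425 in cluster 1 for Fmod and Ogn, which are on different chromosomes. The cells of a strain share sort and mostly plate, and depth differs between them, so these values are a description.

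Cluster 6 was compared with clusters 7 and 8 over C57BL6, Cspg4dsRED and Acta2GFP, with 3, 33 and 3 cells of cluster 6. Of the 9 members tested none passed, where 4 of 12117 genes passed (0.033%) and 695 had an unadjusted p under 0.05. The median log2 fold change of all genes was -0.32 with TMM scaling and -0.17 with DESeq2 size factors, and the members are read against it. Prelp was 936, 1823 and 1380 CPM in cluster 6 and 39.4, 39.5 and 272.03 CPM in clusters 7 and 8 of these strains (log2 fold change 3.69, SE 0.80, adjusted p = 0.204), without overlap. Lum was 1360, 259.1 and 511 CPM against 61.2, 6.31 and 101.2 CPM (3.71, adjusted p = 0.390), and Bgn 2527, 4467 and 3372 CPM against 1081, 1482 and 1500 CPM (1.47, adjusted p = 0.299), both higher in each strain. Ogn was 1373, 1411 and 650 CPM against 46.5, 406 and 397 CPM (2.08, adjusted p = 0.534). Aspn lay below clusters 7 and 8 in each strain, at 371, 312 and 24.3 CPM against 1620, 690 and 566 CPM (-2.02, adjusted p = 0.691).

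With the strain as a replicate block, 6 of the 9 members passed in cluster 6, namely Prelp, Lum, Bgn, Ogn and Dcn higher and Aspn lower, where 0.883% of all genes did. The C57BL6 cells weigh on these values. Dcn was 4970 CPM in the 3 C57BL6 cells but 527 and 453 CPM in Cspg4dsRED and Acta2GFP, and its log2 fold change was 2.08 with C57BL6 and 0.49 without. Podn was 530 CPM in C57BL6 and 1.39 and 9.18 CPM in the other two, and its value turned from 2.03 to -3.36 without C57BL6. In these 3 cells the fibroblast markers summed to 7910 CPM beside 11019 CPM of smooth muscle markers, and their part in the Dcn and Podn levels was not tested. Without C57BL6 the log2 fold change was 3.50 for Prelp, 3.03 for Lum, 1.54 for Bgn, 1.48 for Ogn and -1.83 for Aspn, with adjusted p of 0.323, 0.508, 0.108, 0.477 and 0.699. Without Acta2GFP, Prelp (5.12, adjusted p = 0.000312), Lum (4.47, 0.0346) and Dcn (2.86, 0.0406) passed.

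Pericytes (cluster 8) were compared with vascular smooth muscle (cluster 7) over PdgfrbGFP, Cspg4dsRED and Acta2GFP, and no member passed under any alternative run, where 23 of 11867 genes passed (0.194%), 10 higher (0.0843%) and 13 lower (0.11%). With DESeq2 size factors 12 genes were higher and 33 lower, and the median log2 fold change of all genes moved from 0.18 to 0.04. With 0.194% of all genes called, 0 calls among the members is no result about them. Before adjustment 817 of all genes had a p under 0.05. Aspn, with Bgn the leading member of the pool per length in both clusters, was 1584, 954 and 549 CPM in cluster 8 and 1554, 592 and 576 CPM in cluster 7 (0.02, SE 0.57), and its sign turned with the scaling (-0.53 with DESeq2 size factors). The 9 PdgfrbGFP cells of cluster 7, the sum with the high Aspn, carried the 4 pericyte markers (Kcnj8, Abcc9, Vtn, Rgs5) at 8974 CPM against 2486 and 2859 CPM in Cspg4dsRED and Acta2GFP, and without PdgfrbGFP the log2 fold change of Aspn was 0.38. The part of these markers in the Aspn level was not tested. Bgn was 1459, 1774 and 1712 CPM against 1008, 1374 and 1382 CPM (0.33, SE 0.36, adjusted p = 0.989), without overlap. With DESeq2 size factors the log2 fold change of Bgn was 0.059. Ogn was 47.03, 7.95 and 276.5 CPM against 167.3, 554 and 465 CPM (-1.81, SE 1.02, adjusted p = 0.859), lower in each strain.

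The Acta2GFP cells of cluster 8 carried most of the Podn and Prelp reads in pericytes. Podn was 323 CPM there against 0.45 to 12.5 CPM in the other strains, and Prelp 542 against 39.7 to 51.1 CPM. In the same sum the 5 fibroblast markers were at 2472 CPM (591 to 833 in the other strains) with none at 0, the 4 smooth muscle markers at 4033 CPM (201.1 to 1170), and the 4 pericyte markers at 6942 CPM (18865 to 23596). Their part in these levels was not tested. Without Acta2GFP the log2 fold change between clusters 8 and 7 was 2.30 for Podn, 0.31 for Prelp and -3.78 for Ogn, against 4.70, 1.78 and -1.81 with it.

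The 4 fibroblast clusters 2 to 5 were each compared with the other three. No gene passed in any of the 4 comparisons by edgeR (0% of 13870, 14803, 14104 and 16214 genes), with 641, 895, 670 and 630 genes at an unadjusted p under 0.05 and 1.29%, 2.71%, 1.31% and 0.874% of genes called by DESeq2. Prelp differed most evenly. In cluster 2 it stood at 1716, 1850, 2267 and 2283 CPM in C57BL6, PdgfrbGFP, Cspg4dsRED and Acta2GFP and in clusters 3 to 5 at 985, 1324, 1335 and 1149 CPM (log2 fold change 0.79, SE 0.19, adjusted p = 0.339), without overlap, and DESeq2 called it (adjusted p = 0.0326).

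In cluster 3 Prelp was 586, 628 and 524 CPM in C57BL6, PdgfrbGFP and Acta2GFP against 1273, 1478 and 1831 CPM in clusters 2, 4 and 5 (-1.25, SE 0.25, adjusted p = 0.313), also without overlap. With the strain as a replicate block, Prelp fell in cluster 3 (adjusted p = 0.00654). The median of all genes in this comparison was -0.13 with TMM scaling and 0.04 with DESeq2 size factors. Ogn was lower in cluster 4 in each strain (802 ± 217.6 against 1273 ± 292.02 CPM, n = 4, log2 fold change -0.66, adjusted p = 0.987), with overlap. Cluster 5 could be compared in C57BL6 and PdgfrbGFP alone, where Podn was 383 and 413 CPM against a mean of 265.9 ± 25.3 CPM (0.66, adjusted p = 0.9999) and Aspn 233.2 and 367 CPM against 629 ± 207.8 CPM (-0.98, adjusted p = 0.9999). Dcn, Bgn and Lum differed by at most 0.40 on the log2 scale in these 4 comparisons.

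Genes whose pattern was most like that of a member were taken by Pearson's r of log2(CPM + 1) over the 27 sums of strain and cluster, among 10326 genes. The sums share strains, plates and the split into fibroblasts and mural cells, so r is a description. The nearest to Dcn was Serpinf1 (0.980), to Lum Mgst1 (0.977), to Podn Dpep1 (0.953), to Bgn Itgbl1 (0.923), to Omd Cpxm1 (0.909), to Fmod Spp1 (0.892), to Aspn Clstn1 (0.882) and to Ogn Gas6 (0.848). Prelp was nearest to its antisense gene Gm15851 (0.991) and then to Pam (0.950). Reads of Prelp and Gm15851 cannot be told apart over their shared exon bases, so the first value may rest on the same reads. Among the members themselves, the neighbours Dcn and Lum had 0.960, Ogn and Omd 0.792, and Fmod and Prelp 0.45. Bgn and Prelp, on different chromosomes, had 0.911. Aspn had negative values with the other tested members, from -0.38 with Bgn to -0.04 with Podn.

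Other genes of the same biology were taken as lists. Of 9 further leucine-rich proteoglycan genes, 5 could be tested between fibroblasts and mural cells, and 2 rose, where 3.47% of all genes did, with a list median of 1.88 on the log2 scale against -0.02 for all genes. Epyc, which follows Kera on chromosome 10, was 86.6 ± 93.8 CPM in fibroblasts against 0.803 ± 0.398 CPM in mural cells (6.71, SE 0.91, adjusted p = 0.00230). Its mean was 620.7 ± 1013 CPM in cluster 1 against 33.5 ± 28.9 CPM in the other fibroblasts (adjusted p = 0.188), so the strains of cluster 1 were far apart. Chad, a collagen-binding protein of cartilage, was 86.3 ± 39.3 against 15.3 ± 7.24 CPM (2.48, adjusted p = 0.0320). In cluster 1 Chad was the 1 gene of 5 tested that rose, where 0.561% of all genes did, at 876 ± 461 against 10.5 ± 7.92 CPM in clusters 2 to 5 (6.36, SE 0.75, adjusted p = 0.00236).

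Of 23 genes for chondroitin and dermatan sulfate synthesis, 20 were tested between fibroblasts and mural cells (list median 0.69). Chst7 and Ust, both sulfotransferases, rose and Xylt1 passed as well, where 3.47% of all genes were higher. Chst7 was 32.2 ± 20.99 against 0.711 ± 0.426 CPM (5.49, adjusted p = 0.0131). Xylt1, which starts the chains, was 1.62 ± 1.95 CPM in fibroblasts and at 0 in all mural sums, where 3 counts set limits of 0.0848 to 0.347 CPM, so it entered the test through the fibroblast sums alone. Of 10 genes for keratan sulfate synthesis, 7 were tested and 1, the galactosyltransferase B4galt1, rose beside the same 3.47% of all genes (272.7 ± 38.6 against 94.2 ± 44.3 CPM, 1.53, adjusted p = 0.0252, list median 0.46). Neither list gave a call in cluster 1 or in the other comparisons.

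Of 19 partners of these proteins (proteases, receptors and collagen), 17 were tested and 8 rose in fibroblasts, beside 3.47% of all genes (list median 1.57). The 8 hold Col1a1 and Col1a2, which are also among the fibroblast markers used above, so their rise adds no separate evidence. Mmp2, a gelatinase, was 2224 ± 166.1 against 215.03 ± 89.9 CPM (3.33, adjusted p = 0.000651), and Adamts5, a protease that cuts proteoglycans, was 399 ± 117.1 against 37.5 ± 44.6 CPM (3.43, adjusted p = 0.0328). In cluster 1 both genes of this list that passed of 17 tested fell, where 0.773% of all genes did, Adamts5 to 29.6 ± 21.3 from 453 ± 162.2 CPM (-3.94, SE 0.58, adjusted p = 0.00784) and the membrane protease Mmp14 to 119.9 ± 66.98 from 540 ± 59.1 CPM (-2.15, adjusted p = 0.0416). Of 21 proteoglycans outside the leucine-rich family (large matrix, cell surface and intracellular ones), 18 were tested and 3 rose in fibroblasts, beside 3.47% of all genes (list median 0.52), among them Vcan, the large chondroitin sulfate proteoglycan versican (233.3 ± 39.8 against 4.49 ± 2.96 CPM, 5.68, adjusted p = 0.000280), and Prg4, the lubricin gene (371 ± 181.4 against 15.2 ± 7.57 CPM, 4.56, adjusted p = 0.00145). Prg4 was also the 1 gene of 17 tested in that list that rose in cluster 1, where 0.561% of all genes did, at 2181 ± 1000 against 148.5 ± 57.8 CPM (3.87, SE 0.41, adjusted p = 0.00123). The lists gave no call in clusters 6 and 8 or in the comparisons of clusters 2 to 5.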

How the data were processed

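The authors deposited raw read counts per gene and cell. According to the study's methods and the submitters' processing notes, single-read Smart-seq2 libraries were split with bcl2fastq, trimmed with Trim Galore and mapped to GRCm38 (mm10) by TopHat2 with Bowtie or Bowtie2. Reads were counted with featureCounts of the Subread package, whose strand setting is not given in the sources used here. The methods state that samtools served to remove doublets. Cells that were shallow, held over-many genes (as likely doublets), lacked both Pdgfra and Pdgfrb or carried an endothelial or immune signature had been taken out by the authors. Here every deposited cell was kept, and doublets were not called. Clusters were taken from the labels. The table was mapped to samples by cell name.

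ERCC spike-in rows (92 rows, 1.82% of all counts) were left out. Counts were summed per strain and cluster or side, with 3 cells or more per sum, and scaled to CPM. The sums were compared with the quasi-likelihood F test of edgeR 4.0.16 (R 4.3.3), with TMM factors, genes kept by filterByExpr at 10 counts or more, p-values adjusted by the Benjamini-Hochberg method over all genes tested and a threshold of 0.05. The SE was taken from the fit as the size of the log2 fold change over the root of its F. Ratios within strains used a pseudocount of 1 CPM. The fit was checked on simulated counts. Other work used Python 3.11.15, pandas 2.3.3, numpy 2.4.6, scipy 1.17.1 and matplotlib 3.10.9. Lengths and overlaps came from the annotation of GRCm38, promoters from RefSeq on GRCm38.p6. A sum of n counts has counting error only in the sense of reads, which carry no molecular identifiers and are not independent molecules.

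The alternatives were DESeq2 1.42.0, its size factors in edgeR, no filter on low counts, each strain left out, plates in place of strains, clusters 1 and 6 left out of the fibroblast and mural comparison, the strain as a replicate block, and the longest transcript as gene length. Leaving out the C57BL6 cells of cluster 6 and the Acta2GFP cells of cluster 8 was added after seeing the data. The sums of a strain come from the same sort and plates. The correlation of their deviations from the means of the sides was 0.0307 to 0.242, above 0.1 in every pair of the comparisons of clusters 3, 4 and 5 and not in every pair of the others. Blocked values stand beside a result where they change a call. The members and the gene lists were chosen with earlier results of these data known. Named were the members, up to 2 genes per other list, comparison and direction with the largest fold change among those that passed in the same direction in every strain, the genes most like each member, and genes that overlap or neighbour a member.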

Additional observations from a re-analysis of the deposited data

Results flagged for a closer look

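In groups of 4 strains, a strain far from the other three was looked for by the gap to its nearest neighbour over the whole range (above Dixon's 95% critical value). Of 76 groups, 10 had such a strain. Chance gives about 1 in 20 only for independent, normally distributed values. These groups share sums and hold genes with few reads, so no excess over chance can be read from the count.

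Cluster 8 gave 4 of the 10, each with Acta2GFP as the highest strain. Ogn was 276.5 CPM there against 7.95 to 47.7 CPM in the others, Omd 8.21 against 0 to 0.813, Prelp 542 against 39.7 to 51.1 and Podn 323 against 0.45 to 12.5 CPM. The 15 cells of this sum also had the highest fibroblast and smooth muscle markers and the lowest pericyte markers of the 4 strains, as given above, and the part of these in the 4 levels was not tested.

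Kera was 71.7 CPM in cluster 1 of PdgfrbGFP against 0 to 0.660 CPM in the other strains, nearly all of it from 1 cell. In cluster 4 Kera was 0.783 CPM in Acta2GFP against 0 to 0.103 CPM, a sum of 12 reads. Ogn in cluster 2 was lowest in Cspg4dsRED, at 990 CPM against 1282 to 1315 CPM, in 8 cells.

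The remaining flags concern log2 ratios within strains. Between cluster 1 and clusters 2 to 5, Lum had -0.0587 in Acta2GFP against 0.20 to 0.25 in the others, and Aspn had -3.20 in Cspg4dsRED, with 3 cells of cluster 1, against -0.52 to -0.32. Between cluster 2 and clusters 3 to 5, Podn had -1.15 in Cspg4dsRED against 0.05 to 0.16.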

How the results depend on the processing

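Of 342 alternative values of the members' log2 fold changes, 84.5% kept direction and side of the threshold, 21 lost and 18 gained the call and 14 reversed. Taken per member and comparison, 17 kept their result over all their alternatives, 16 changed side and 8 reversed in at least 1. Of 350 alternative levels, 342 stayed within 1 SD. Unless stated, the causes were not tested. The genes called, as a percentage of those tested, were 13.2% with DESeq2 between fibroblasts and mural cells, 5.30% in cluster 1, 2.99% in cluster 6, 3.44% between clusters 8 and 7, and 1.29%, 2.71%, 1.31% and 0.874% in clusters 2, 3, 4 and 5. DESeq2 size factors in edgeR gave 0.379% between clusters 8 and 7. Without a filter 0.418%, 0.855%, 0.00736%, 0.0705%, 0.0184% and 0.119% were called in cluster 6, clusters 8 against 7, and clusters 2, 3, 4 and 5. With plates in place of strains 0.176%, 0.135%, 0.159% and 0.00672% were called in clusters 2, 3, 4 and 5, and plates were not run for cluster 6 and clusters 8 against 7. With the strain as a replicate block 0.742% of genes were called in cluster 1, 0.883% in cluster 6, 0.691% between clusters 8 and 7 and 0.236% in cluster 3. The members called were 3, 6, 0 and 1 in these comparisons, with no other call on a member changed by the block. Between fibroblasts and mural cells 5 members were called with the block, where the share of all genes is given only without it (5.93%). Leaving out 1 strain, which leaves fewer samples, gave 2.66% to 3.91% between fibroblasts and mural cells, 0.201% to 0.748% in cluster 1, 0% to 0.495% in cluster 6, 0% to 0.987% between clusters 8 and 7 and 0% to 0.00657% in cluster 4, with 2 to 4 members called between fibroblasts and mural cells, 1 to 3 in cluster 1 and 0 to 3 in cluster 6. Cluster 5, with 2 strains, was not run this way. Members called in cluster 6 were 1 with DESeq2 and 2 without a filter, and 1 in cluster 2 with DESeq2. Reversed values, each without a call, were Dcn in cluster 1 without a filter (-0.0665) and, between clusters 8 and 7, Lum (-0.19) and Aspn (-0.53) with DESeq2 or its size factors and Fmod with the block (0.0718). With a strain left out, the log2 fold change ran from -0.0262 to 0.123 for Dcn and from -0.511 to 0.0764 for Omd in cluster 1, from -1.62 to 0.0240 for Fmod and from -3.36 to 6.40 for Podn in cluster 6, and from -0.146 to 0.147 for Fmod, from -3.01 to 0.27 for Omd and from -0.18 to 0.38 for Aspn between clusters 8 and 7. Per longest transcript Dcn led the pool in 1 cluster in place of 2. Sums of 3 cells (cluster 1 of Cspg4dsRED, cluster 6 of C57BL6 and Acta2GFP) limit the values of low genes most.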
